A study of Drosophila melanogaster with 10 samples.

Results

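The response of Drosophila melanogaster S2 cells to depletion of the histone variant H2A.Z was measured in 4 RNA-seq libraries out of 10 in the series, 2 of H2A.Z knockdown (KD) and 2 of the control knockdown, named Luc KD in the same deposited tables. The members were chosen by group and by table, not by a measured value, though with earlier results of these data known. S2, an established line of embryonic origin, has features of hemocytes, the blood cells of the fly. As labelled, all 4 libraries came from cells that had received double-stranded RNA and had been transfected with wild-type Achaete (Ac WT), a proneural transcription factor, together with its partner Daughterless (Da). The controls therefore carried the same plasmids and differed in the target of the double-stranded RNA. Deposited tables A and B each held 1 library of each group, and the comparison was paired by table. They also held 1 library each of another group, Luc KD with the Ac variant R29G and Da, which shared the estimate of the spread. A separate table held Arp6 KD and Luc KD controls of its own, 2 libraries each, with Ac WT and Da as well, and its differences are set beside those of H2A.Z KD. Knockdown lowers a transcript without removing it, and the labels give neither the share of cells transfected nor whether the libraries came from separate cultures, so the p-values reflect library-to-library spread that may be technical.

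H2A.Z takes the place of histone H2A in a share of nucleosomes, in particular those beside the start sites of genes. In Drosophila it is encoded by His2Av, whose product also carries the role in DNA damage signalling that H2A.X has in mammals. The protein is placed into chromatin by remodelling complexes of the SWR1 and Tip60 type, built around the Domino ATPase, and it has been linked both to gene activation and to heterochromatin.

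The libraries held 24500413 to 29258719 reads (H2A.Z KD) and 26050325 to 33712374 reads (Luc KD). Gene positions are those of BDGP6. Values below are reads scaled by 1 factor per library, n = 2 per group, and differences are H2A.Z KD minus Luc KD on log2(value + 1), from limma with the table as a block, with Benjamini-Hochberg adjusted p over 11942 genes and a threshold of 0.05. Checked against markers of cell types, 11 of 19 hemocyte genes, which mark the labelled cell type, reached 100 scaled reads per kilobase of exon in Luc KD, against 0 of 16 neuron, 1 of 14 muscle, 1 of 10 fat body and 2 of 18 testis genes. Epithelium markers reached that level in 9 of 12 cases and glia markers in 4 of 8.

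The target was depleted in both H2A.Z KD libraries and more deeply in table B. His2Av (FBgn0001197, 3R 26866929 to 26869220, plus strand) held 6489 and 5679 scaled reads in Luc KD of tables A and B, against 1702 and 789.9 after the knockdown. The 2 Luc KD libraries with Ac R29G held 6092 and 5674, so both knockdown values lay far below all 4 libraries of Luc KD. The remaining RNA was 26.2% and 13.9% of that in the paired control, a difference of -2.39 (SE 0.15, adjusted p = 1.19e-08; 0.0193 without pairing).

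Genes of the machinery that places H2A.Z were mostly lower as well, by smaller steps. Of 17 measured genes of the SWR1 and Tip60 type complexes, with His2Av counted among them, 10 fell and 1 rose, with a median of -0.21 against -0.01 over all genes. The fall of His2Av in this count was set by the knockdown itself. The background is wide: 18.4% of all genes tested were called higher and 19.3% lower in the paired fit, and 2.45% and 2.19% without pairing. The bromodomain gene Brd8 was at 2887 and 2662 in Luc KD and 2038 and 1787 in H2A.Z KD (-0.54, SE 0.07, adjusted p = 1.35e-05), and it passed without pairing too (0.0371). Gas41, a YEATS domain subunit, fell by 0.48, the subunit gene DMAP1 by 0.39, YL-1, which binds H2A.Z, by 0.36, and Tip60, the acetyltransferase, by 0.35 on the log2 scale. The ATPase gene dom was at 15583 and 15986 in Luc KD and 18142 and 18956 in H2A.Z KD and was the member that rose (0.23, adjusted p = 0.00162). Arp6, a subunit of the SWR1 type complex, was at 932 and 1047 in Luc KD and 1023 and 1079 in H2A.Z KD and did not pass (adjusted p = 0.413). The number of falls in the group was 5 without the Luc KD library of table B and 4 when each library's median served as scale, where the median difference was -0.05.

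Histone H3.3 genes moved the other way. His3.3B was at 25777 and 21446 in Luc KD and at 33404 and 31050.1 in H2A.Z KD (0.45, SE 0.06, adjusted p = 1.1e-05), and His3.3A at 4999 and 4606 against 5793 and 5556 (0.24, adjusted p = 0.003). The histone chaperone genes Nap1 (0.30) and Nlp (0.30) rose too, whereas yem, whose product deposits H3.3, fell from 4494 and 3987 to 3199 and 2751 (-0.51, adjusted p = 8.22e-06; 0.0474 without pairing). In all, 5 of 18 other histone variant and chaperone genes rose and 1 fell in the paired fit (27.8% higher, against 18.4% of all genes). Without pairing yem alone of these 18 passed. The rises numbered 12 with median scaling and 2 under quantile normalization.

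Across the genome the change was broad and mostly small. The paired fit called 2197 genes higher and 2300 lower. All of them had the same direction in both tables, which the paired call itself favours, so this is no separate evidence. Differences were of at least 2-fold for 277 of the higher genes (2.32% of genes tested) and 311 of the lower ones (2.6%), 4.92% in either direction. Limma without pairing called 293 higher (2.45%) and 262 lower (2.19%), 4.65% of genes tested in either direction, all within the paired calls, and when each of the 6 libraries was left out in turn between 4 (without Luc KD table B or H2A.Z KD table B) and 92 (without H2A.Z KD table A) in all. Limma with pairing but without the intensity trend called none, with 4171 genes at an unadjusted p under 0.05, whereas edgeR with the table as a block called 4671 and DESeq2 3327. Table B, with the deeper depletion of His2Av, had the larger difference for 64.2% of the genes called higher and 74.2% of those called lower. The medians in tables A and B were 0.36 and 0.41 for the higher genes and -0.38 and -0.51 for the lower ones. With 1 knockdown library at each depth of depletion this is a description of the tables, without the same share over all genes tested. Table B also held fewer reads in both groups.

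**Figure D1:**
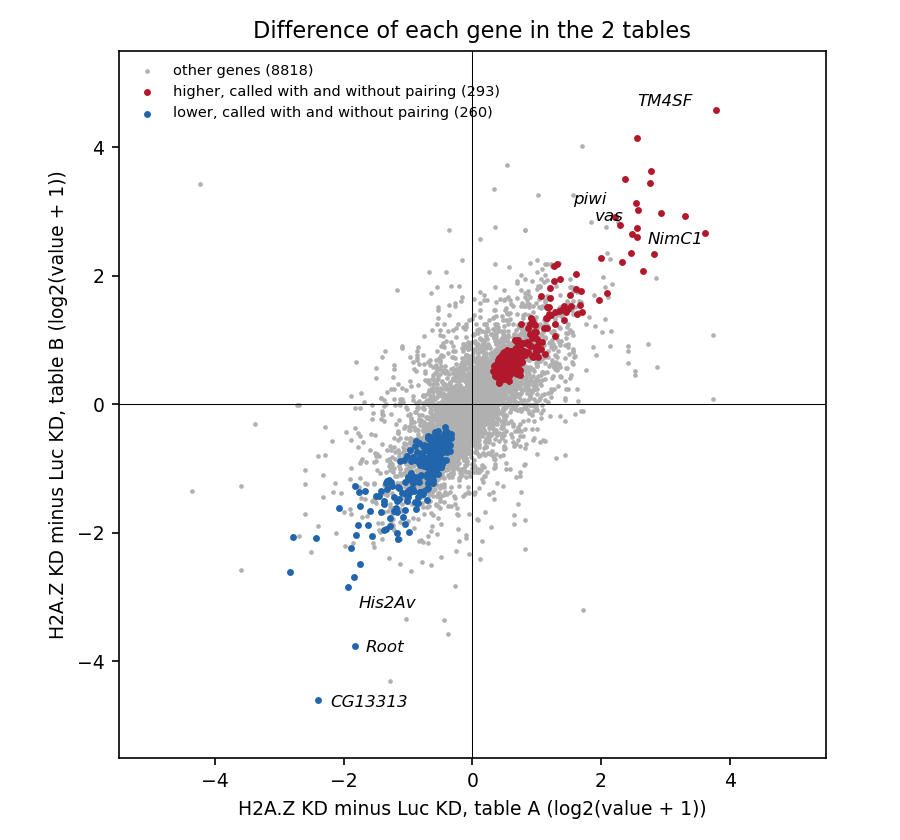
Difference between H2A.Z KD and Luc KD (log2(value + 1)) in table A on the x axis and table B on the y axis, 1 point per gene with a mean of at least 10 in the higher group. Genes called with and without pairing are red (higher) or blue (lower), and they lie in the upper right and lower left, with TM4SF and CG13313 at the ends.

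The balance of rises and falls rested on how libraries were scaled. With the median of each library as scale, 3336 genes were higher and 1232 lower, and the median over all genes moved from -0.01 to 0.13. Directions of small differences below are relative to the median-of-ratios scale. Both H2A.Z KD libraries lay above all 4 Luc KD libraries, those with Ac R29G included, for 1667 of the 2197 genes called higher (19.9% of all genes tested did so). They lay below all 4 for 1882 of the 2300 called lower (21.9% of all genes tested). The count of calls fell from 4497 to 2603 without the Luc KD library of table B, the only library whose loss moved it by over 1.5 times. Each of these paired fits with a library left out kept 1 residual degree of freedom, so that the spread of a gene came almost wholly from genes of like level.

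The largest rises were in genes with few reads in the controls. Of the 15 largest, 14 had a Luc KD mean under 100 scaled reads. Both H2A.Z KD libraries lay above all 4 Luc KD libraries in each of the 15, as in all 293 genes called higher with and without pairing. This separation thus came with the selection (19.9% of all genes tested lay above all 4). The tetraspanin gene TM4SF (FBgn0020372, 2R 23878197 to 23880860, plus strand) was at 7.67 and 6.12 in Luc KD and 119 and 168 in H2A.Z KD (4.18, SE 0.37, adjusted p = 4.04e-07). The gene CG4882 on the other strand overlaps it, but CG4882 itself was at 895 and 989 in Luc KD and 636 and 532 in H2A.Z KD, the opposite direction. The strand setting of the counting is unknown here, so reads of overlapping genes may be mixed.

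Among the 15 were genes for a phagocytosis receptor, a Ly6 type surface protein and a C-type lectin. NimC1 (FBgn0259896, 2L 13973158 to 13976769, minus strand), which encodes a phagocytosis receptor of hemocytes, was at 342 and 342 in Luc KD and 2027 and 2072 in H2A.Z KD (2.58, SE 0.09, adjusted p = 1.13e-11). Its 2 libraries in each group were nearly alike, and it had the lowest adjusted p of the 15, also without pairing (0.000583). The gene atilla (FBgn0032422, 2L 12175451 to 12177886, minus strand), which encodes a Ly6 type surface protein known as a marker of lamellocytes, was at 17.0 and 29.6 against 100.2 and 192 (2.57, SE 0.28). The C-type lectin gene lectin-24Db (FBgn0040102, 2L 4188123 to 4189284, plus strand) was at 6.82 and 13.3 against 76.5 and 107 (3.12, SE 0.35). In each of these the knockdown libraries stood well apart from the controls.

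Transport and metabolic genes followed. Eglp4 (FBgn0034885, 2R 23607592 to 23614710, minus strand), of the aquaporin family, was at 20.4 and 15.3 in Luc KD and 144 and 176 in H2A.Z KD (3.10, SE 0.27, adjusted p = 2.98e-07). NT5E-2 (FBgn0050104, 2R 17485002 to 17493169, plus strand), a 5′-nucleotidase gene by its name, was at 50.3 and 92.9 against 305 and 758 (2.80). In both genes the groups did not overlap, but NT5E-2 stood higher in table B in either group. The germline genes vas and piwi were also among the 15. The helicase gene vas (FBgn0283442, 2L 15061656 to 15074311, plus strand) was at 29 and 39.8 against 176 and 273 (2.65, SE 0.23), and it overlaps vig, a gene with far more reads, at 9679 and 7154 against 10502 and 8091 (0.15). The Argonaute family gene piwi (FBgn0004872, 2L 10982205 to 10987420, minus strand) was at 41.7 and 45.9 against 197 and 353 (2.56, SE 0.22). Both H2A.Z KD libraries exceeded every Luc KD library for both genes, as for all genes called higher with and without pairing. Of the 15 rises, piwi, atilla, CG43191, CG18754, CG1208, NT5E-2 and Eglp4 also share bases with another gene. The partner of NT5E-2, CG43110, moved in the same direction, at 12.8 and 21.4 against 24.8 and 41.5 (0.91), as did that of CG1208, glob3, at 2.56 and 1.02 against 4.50 and 6.10, which did not pass. CG8321, the partner of CG43191, differed by 0.10 and SCAR, that of piwi, by 0.08, and neither passed.

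The rest of the 15 were genes without a role named here. lncRNA:CR44948 was at 8.52 and 9.19 in Luc KD and 55.2 and 179 in H2A.Z KD (3.35), CG43886 at 3.41 and 5.10 against 29.3 and 74.5 (3.20), and CG43191 at 8.52 and 16.3 against 66.4 and 86.7 (2.58). CG10764 was at 46.9 and 57.2 against 365 and 457 (2.95), CG18754 at 38.3 and 44.9 against 227 and 400.4 (2.83), and CG1208 at 19.6 and 19.4 against 106 and 229.5 (2.94). Table B was the higher one in H2A.Z KD for all of these. CG10560 was at 0 and 2.04 in Luc KD and 11.3 and 18.3 in H2A.Z KD (3.14), but the Luc KD libraries with Ac R29G held 8.36 and 11.2, close to the knockdown values.

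**Figure D2:**
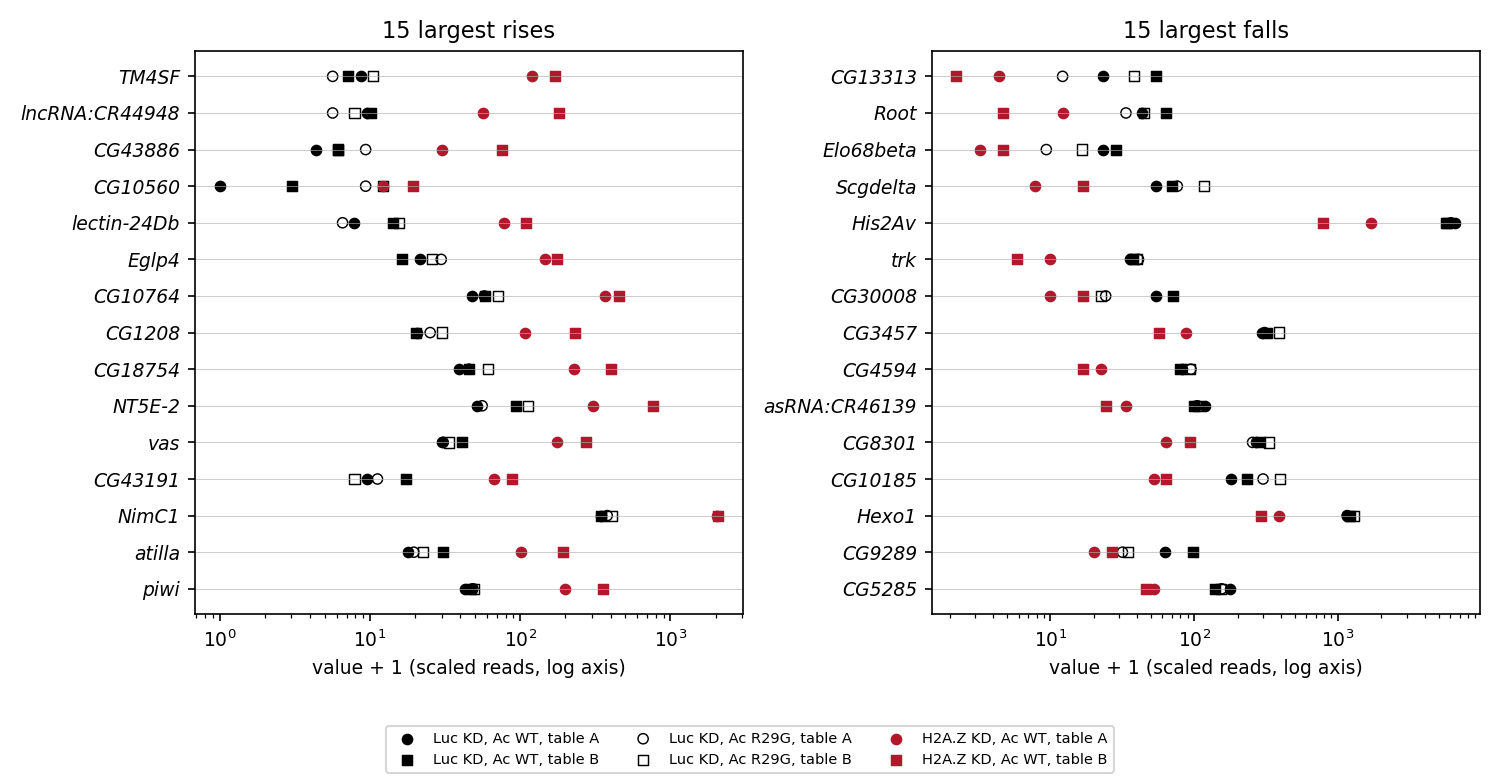
Scaled reads plus 1 on a log axis for the 15 largest rises (left) and the 15 largest falls (right), 1 symbol per library; circles are table A and squares table B. Red symbols (H2A.Z KD) lie to the right of all black and open symbols (Luc KD) on the left panel and to the left of them on the right panel, with CG10560 and CG9289 the narrowest gaps in view.

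The largest falls were smaller in size than the largest rises. They ran from -3.50 to -1.67, against 2.56 to 4.18 for the rises, and the target His2Av was among the 15. Both H2A.Z KD libraries lay below all 4 Luc KD libraries in each of the 15, as in 98.9% of the genes called lower with and without pairing. This separation too came with the selection (21.9% of all genes tested lay below all 4). CG13313 (FBgn0035941, 3L 8958857 to 8960921, plus strand), a gene with no role named here, was at 22.2 and 53.1 in Luc KD and 3.38 and 1.22 in H2A.Z KD (-3.50, SE 0.53, adjusted p = 7.15e-05). Root (FBgn0039152, 3R 24113286 to 24128193, plus strand), which encodes the rootlet protein of sensory cilia, was at 42.6 and 62.3 against 11.3 and 3.66 (-2.80, SE 0.42). It overlaps GatB and CG13607, both lower in H2A.Z KD as well. GatB went from 592 and 529 to 380.4 and 371 (-0.57), and CG13607, at few reads, from a mean of 10.4 to 4.7. Scgdelta (FBgn0025391, X 1735945 to 1754065, minus strand), the delta sarcoglycan gene, was at 52.8 and 69.4 against 6.75 and 15.9 (-2.43, SE 0.28). For CG13313 and Root the knockdown library of table B was the lower one, for Scgdelta that of table A. The gene trk (FBgn0003751, 2L 10271443 to 10272324, minus strand), which encodes the ligand of the Torso receptor, was at 34.9 and 36.7 against 9.0 and 4.88 (-2.26, SE 0.35).

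Other falls were in genes with more reads. Hexo1 (FBgn0041630, 3L 4288641 to 4291211, plus strand), a hexosaminidase gene, was at 1146 and 1206 in Luc KD and 387 and 291 in H2A.Z KD (-1.81, SE 0.11, adjusted p = 1.19e-08). CG3457 was at 294 and 320.5 against 86.7 and 56.2 (-2.12), CG8301 at 268 and 285 against 63.0 and 92.8 (-1.84), and CG10185 at 179.8 and 231 against 51.8 and 62.3 (-1.82). CG5285, named Smug in the annotation after the uracil-DNA glycosylase, was at 176 and 138 against 51.8 and 45.2 (-1.67), and CG4594 at 81.8 and 78.6 against 21.4 and 15.9 (-2.06). In these 6 genes the groups were separated by more than the gap between the tables. For CG30008 (52.8 and 70.4 against 9.0 and 15.9, -2.25) and CG9289 (61.3 and 97.0 against 19.1 and 25.6, -1.75), the Luc KD libraries with Ac R29G held 23.2 and 21.5 and 30.7 and 33.6, nearer in scaled reads to H2A.Z KD than to Luc KD with Ac WT. For CG30008 in table A this did not hold on the log2(value + 1) scale. Elo68beta, a fatty acid elongase gene (22.2 and 27.6 against 2.25 and 3.66, -2.72), has a close paralog and is uncertain. Its values in the libraries with Ac R29G, 8.36 and 15.5, lay between the 2 groups. The antisense gene asRNA:CR46139 (-1.92) overlaps CG34112, which was at 179 and 179 against 78.8 and 54.9, and the pair cannot be told apart here. Overlaps were also annotated for CG30008 with CG1513, which fell (-0.16), for trk with Mulk (-0.20), Hexo1 with CG15012 (0.00) and CG10185 with msps (0.03), none of these last 3 past the threshold, and for CG8301 and CG9289 with genes of few reads.

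A few genes had no read in H2A.Z KD, and those named here were chosen after their values were seen. The testis gene tomb was at 6.82 and 8.16 in Luc KD, which is at least 4.23-fold lower in the knockdown at a floor of 3 reads over the group. The P450 gene Cyp311a1 was at 5.96 and 4.08, at least 2.91-fold lower. Both passed with pairing (adjusted p = 0.000554 and 0.00389) and without it (0.0294 and 0.0489). Counting error only is covered by these bounds.

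Many of the measured receptors by which hemocytes take up particles rose. Of all genes tested 18.4% were called higher and 19.3% lower in the paired fit, and 2.45% and 2.19% without pairing. Of 22 measured phagocytosis and scavenger receptor genes, 11 rose and 0 fell, with a median of 0.50, and 6 also passed without pairing. Besides NimC1 these were the scavenger receptor gene Sr-CIV (45.2 and 51.0 in Luc KD and 149 and 175 in H2A.Z KD, 1.73), the Nimrod genes NimB1 (389 and 355 against 781 and 715, 1.01) and NimB3 (296 and 279.6 against 602 and 468, 0.88), the bacteria receptor gene eater (1934 and 1839 against 3164 and 3017, 0.71) and pes (4427 and 4289 against 5736 and 5981, 0.43), a CD36 family gene. NimB2, at 1051 and 883 in Luc KD and 1130.1 and 930.3 in H2A.Z KD, did not pass (adjusted p = 0.383), and NimA lay at or below 6.10 scaled reads in all 4 libraries. The rises were thus spread over several receptor families but did not include all Nimrod genes. Of 5 thioester protein genes, which encode complement-like opsonins, 3 rose, Tep2 from 2815 and 2679 to 4388 and 4537 (0.70), Tep4 from 3135 and 2942 to 4399 and 4195 (0.50) and Tep1 at low level (1.06).

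Of 19 hemocyte fate and marker genes 9 rose and 1 fell (47.4% and 5.26%, against 18.4% and 19.3% of all genes). Their median was 0.23 (0.05 under quantile normalization), and 1 rise (atilla) and 1 fall (PPO3) held without pairing. The clotting gene Hml was at 105511 and 93845 in Luc KD and 150364 and 133278 in H2A.Z KD (0.51), and the peroxidasin gene Pxn at 47144 and 40512 against 64405 and 50017 (0.38). PPO3, a prophenoloxidase gene, fell from 607 and 634 to 289 and 346 (-0.97, SE 0.10), while its relatives PPO2 (0.94) and PPO1 (0.83) rose. The summed level of these 19 genes was 249639 and 208262 in Luc KD and 321049 and 269820.0 in H2A.Z KD. Without the Luc KD library of table B 5 rises were called. More cells of a kind and more RNA per cell cannot be told apart in bulk samples.

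The NF-kappaB genes of the immune pathways rose, and of the antimicrobial peptide genes in these lists only Drs was called in the paired fit. Of 25 Toll pathway genes 8 rose and 3 fell, and of 26 Imd pathway genes 4 rose and 1 fell. Among all genes 18.4% were called higher and 19.3% lower, and the 15.4% of Imd genes that rose lay below that share. The NF-kappaB genes Dif (2043 and 1736 in Luc KD, 2816 and 2941 in H2A.Z KD, 0.61), dl (2199 and 2337 against 3165 and 3654, 0.58) and Rel (4760.2 and 4728 against 6237 and 6627, 0.44) and the receptor gene Tl (1609 and 1502 against 2131 and 2113, 0.45) passed with and without pairing. Of the peptide genes, Drs rose in the paired fit from 56.2 and 214 to 82.2 and 391 (0.70, 0.676 without pairing), while AttA (17.0 and 18.4 against 14.6 and 18.3) and AttB (46.0 and 43.9 against 67.5 and 61.0) did not pass. The Toll falls numbered 0 without the Luc KD library of table A and 0 without that of table B, and 1 without either of the libraries with Ac R29G. The Imd rises numbered 2 without Luc KD table B and 11 with median scaling. In the JAK/STAT list 2 of 16 rose: TotM, a stress-induced humoral gene (204 and 1373 against 479.5 and 2742, 1.11), and Socs36E, a feedback inhibitor (0.33). Rises numbered 4 when H2A.Z KD table A was left out and 7 with median scaling. Both Drs and TotM stood several times higher in table B than in table A in either group.

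Adhesion genes divided by complex in the paired fit, where 18.4% of all genes were called higher and 19.3% lower. Of 15 integrin adhesion genes 10 rose and 1 fell (median 0.38). The alpha integrin gene ItgaPS5 was at 162 and 175 in Luc KD and 817 and 809 in H2A.Z KD (2.27, SE 0.12, adjusted p = 4.21e-09), by far the largest change of the group and the one that held without pairing (0.00297). The beta integrin gene mys rose from 15425 and 14072 to 20150.3 and 18531 (0.39), whereas the cytoplasmic linker gene parvin, at 3458 and 2979 against 3291 and 2893, did not pass. Of 14 basement membrane genes 10 rose, among them trol (perlecan, 0.37) and SPARC (0.36), and the nidogen gene Ndg fell (-0.56). None of the 14 passed without pairing, and in the paired fit under quantile normalization 3 rose and 2 fell. In the dystroglycan and sarcoglycan complex, which also links the matrix to the cell, 5 of 8 fell and 0 rose: Scgdelta, Scgalpha (119 and 88.8 against 48.4 and 56.2, -0.97), dystrophin (Dys, -0.38), dystroglycan (Dg, -0.32) and dystrobrevin (Dyb, -0.32). Without the Luc KD library of table A 3 falls were called, and without pairing 1 (Scgdelta).

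Genes of the secretory pathway mostly rose. The shares of all genes called higher and lower were 18.4% and 19.3% with pairing, and 2.45% and 2.19% without it. Direction also went with level: in the highest quintile of genes by level per kilobase of exon, 46.0% were higher and 14.3% lower. In the middle quintile 16.1% were higher and 36.0% lower. No gene group here was compared with genes of like level. Of 32 endoplasmic reticulum chaperone and unfolded protein response genes, 25 rose and 1 fell (median 0.33), 10 of the rises without pairing as well. Hsc70-3, the chaperone BiP, was at 85579 and 73734 in Luc KD and 149561 and 142539 in H2A.Z KD (0.88, SE 0.06, adjusted p = 1.6e-08). The co-chaperone genes shv (0.71) and P58IPK (0.68), the translocon subunit Sec61gamma (0.66) and the disulfide isomerase gene Pdi (23733 and 23130.0 against 36215 and 36242, 0.63) rose as well. The lectin chaperone gene Cnx99A, at 23910.2 and 20844 against 22978 and 19578, did not pass, nor did the stress factor gene Atf3 (1294 and 1271 against 1539.8 and 1222). Quantile normalization gave 16 rises. Among cytosolic heat shock genes 8 of 20 rose, such as Hsp26 (0.69) and Hsp68 (0.64), and Hsp70Bb, a gene with near-identical copies, fell (-0.47). None of the 20 passed without pairing, and quantile normalization in the paired fit gave 5 rises.

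Protein synthesis and turnover genes moved by small steps in the paired fit, where 18.4% of all genes were called higher and 19.3% lower. Of 18 aminoacyl-tRNA synthetase genes 14 rose and 0 fell (median 0.31), with AsnRS at 11400.0 and 16226 in Luc KD and 19803 and 24770.0 in H2A.Z KD (0.70). Of 31 proteasome genes 20 rose and 0 fell (median 0.19), led by Rpt6 (5916 and 7028 against 8656 and 10639.8, 0.57). Without the libraries of Luc KD table A, Luc KD table B or H2A.Z KD table B in turn, 13, 10 and 13 proteasome genes were called higher, and under quantile normalization 7. Cytosolic ribosomal protein genes, of which 75 of 83 rose with a median of 0.27, lost this direction under quantile normalization (median -0.01, 8 higher and 5 lower). Mitochondrial ribosomal protein genes went down: 38 of 72 fell and 3 rose (median -0.26), for example mRpS6 (332 and 269 against 231 and 154, -0.66) and mRpL11 (-0.58). None of these falls passed without pairing. Of the rises above, 1 synthetase, 0 proteasome and 1 cytosolic ribosomal protein gene passed without it. The mitochondrial count was 23 without Luc KD table A, 8 without Luc KD table B, 24 without H2A.Z KD table B, 14 under quantile normalization and 10 with median scaling.

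Genes of cell division were mostly higher. Of 51 mitosis and cytokinesis genes, 33 rose and 6 fell (median 0.29), and 11 of the rises held without pairing. The citron kinase gene sti was at 4291 and 4321 in Luc KD and 7033 and 7577 in H2A.Z KD (0.76, SE 0.06, adjusted p = 6.85e-08). The genes for the midzone bundler Feo (0.63), the centralspindlin subunits Tum (0.60) and Pav (0.55), the kinesin Ncd (0.59), Cyclin B (CycB, 0.51) and Polo kinase (0.49) rose as well, and Bub3 (3077 and 2694 against 3038 and 2852) did not pass. The falls, 0 without Luc KD table A, 2 without Luc KD table B and 0 with median scaling, moved more with the libraries left out than the rises did. Of 41 replication and S phase genes 10 rose and 4 fell (median 0.05), with the GINS subunit genes Psf1 (-0.52) and Psf2 (-0.48) lower and the retinoblastoma gene Rbf higher (0.41). Replication rises made up 24.4%, against 18.4% of all genes, and falls 9.76%, against 19.3%. Those rises numbered 6, 5 and 6 without Luc KD table A, Luc KD table B and H2A.Z KD table B, 21 with median scaling and 6 under quantile normalization, and the falls 1 without Luc KD table B and 2 with median scaling.

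DNA repair genes leaned down, where 18.4% of all genes were called higher and 19.3% lower. Of 25 measured, 12 fell and 2 rose (median -0.24), and 2 of the falls passed without pairing. Parp, which encodes poly(ADP-ribose) polymerase, was at 763 and 878 in Luc KD and 388 and 347 in H2A.Z KD (-1.15, SE 0.10, adjusted p = 4.91e-07). Xpd, a helicase of TFIIH, was at 1624 and 1950.3 against 1085 and 958 (-0.80, SE 0.09). Both were lower in each table, and mu2 (-0.61), nbs (-0.54) and the ligase gene DNAlig4 (-0.53) fell with pairing alone. The count of falls was 7 without Luc KD table A, 6 without Luc KD table B and 6 with median scaling. Of 18 apoptosis genes 5 rose and 0 fell, among them Debcl, a Bcl-2 family gene (2346 and 2213 against 3297 and 3350.0, 0.54), the TNF gene egr (0.66) and the caspase inhibitor gene Diap1 (0.30); with median scaling 9 rose.

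Subunit genes of Mediator, the coactivator that bridges transcription factors and RNA polymerase II, fell in large part in the paired fit. Of 28 measured 21 fell and 0 rose, with a median of -0.34. The falls made up 75.0%, against 19.3% of all genes tested, and 18.4% of all genes rose. MED11 was at 494 and 491 in Luc KD and 280.3 and 226 in H2A.Z KD (-0.97, SE 0.11, adjusted p = 4.97e-06), MED20 at 1004 and 818 against 540.3 and 450.5 (-0.88), and kto, the Med12 gene, at 4049.7 and 4565 against 2964 and 2721 (-0.60). These 3 were the members that passed without pairing, whereas MED1 (6188 and 6102 against 6124 and 5921) and MED10 (525 and 523 against 581 and 523) were close in both groups. The falls numbered 13 without Luc KD table A, 11 without Luc KD table B and 12 with median scaling, where 2 rose.

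Other chromatin regulators fell in part, where 19.3% of all genes were called lower and 18.4% higher. In the Trithorax group and Brahma complexes 10 of 21 fell and 1 rose, including Utx (-0.36) and trx (-0.20), but the median of -0.12 turned to 0.03 with median scaling, and the falls numbered 3, 3 and 4 without Luc KD table A, Luc KD table B and H2A.Z KD table B and 1 with median scaling. In the Polycomb group 7 of 21 fell, such as jing (1617 and 1469 against 1083 and 991, -0.57) and E(z), the H3K27 methyltransferase gene (-0.37), and 3 rose, such as Su(z)2 (0.51) and Psc (0.28). Its median of -0.09 was 0.07 with median scaling, which gave 4 falls, and the rises numbered 1 without Luc KD table B. Among 18 ISWI, CHD and INO80 genes 5 fell and 2 rose (median -0.03), against 2 and 7 with median scaling (median 0.13), and 3 fell without Luc KD table A, Luc KD table B or H2A.Z KD table B. The rises were Chd3, a chromodomain helicase gene (0.43), and Acf, a partner of the ISWI remodeller (0.23), while Arp5, an INO80 subunit, fell from 673 and 694 to 428 and 344 (-0.83, SE 0.10; adjusted p = 0.0301 without pairing), and the ATPase gene Ino80 fell by 0.48 on the log2 scale in the paired fit.

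Small RNA pathway genes changed in both directions, as did all genes tested (18.4% higher, 19.3% lower). Of 33 piRNA and germline genes 6 rose and 12 fell, the falls numbering 6 without Luc KD table B and the rises 10 with median scaling. Against the rises of piwi and vas stood aub, another Piwi family gene, at 2354 and 2618 in Luc KD and 1144 and 839.9 in H2A.Z KD (-1.34, SE 0.11, adjusted p = 1.39e-07), and mael, at 1237 and 1145 against 638 and 508 (-1.06, SE 0.08). Each of these 4 passed without pairing, as did papi (0.60) and shu (0.55), which rose. In the microRNA and siRNA list 2 of 13 rose and 2 fell, and under quantile normalization 8 fell. Dcr-1, which cuts microRNA precursors, fell from 2676 and 3043 to 1745 and 1741 (-0.71) and drosha, which cuts the primary transcripts, from 1342 and 1437 to 956 and 846 (-0.63), both with and without pairing. The Argonaute genes AGO1 (11893 and 10796 against 11491 and 9752) and AGO2 (11679 and 11209 against 11850.2 and 11429.7) did not pass.

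**Figure D3:**
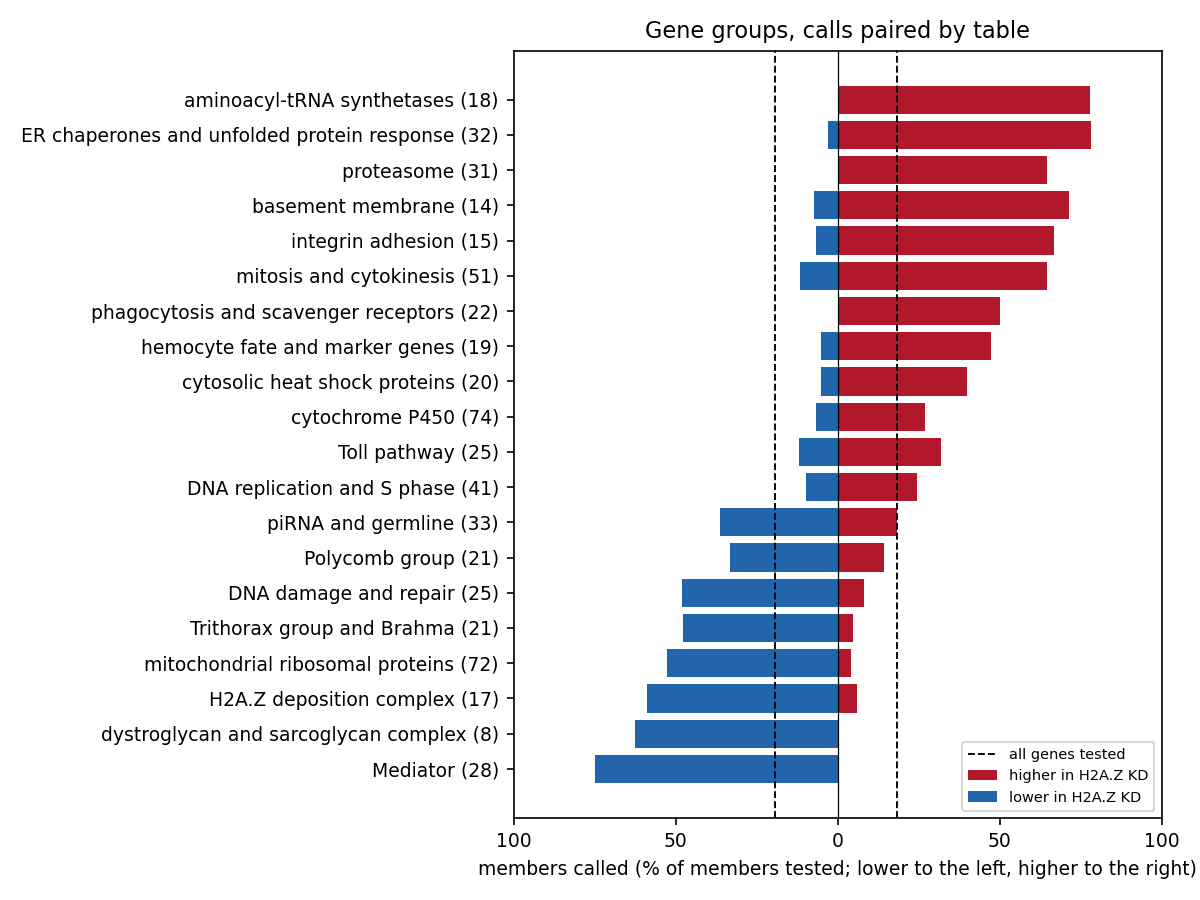
Share of the measured members of 20 gene groups called higher (red, to the right) or lower (blue, to the left) in H2A.Z KD in the paired fit, in percent, with the number of members tested in parentheses; dashed lines mark the shares over all genes, 18.4% and 19.3%. Aminoacyl-tRNA synthetase and endoplasmic reticulum genes reach furthest to the right and Mediator genes furthest to the left; cytosolic ribosomal proteins are not plotted.

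Further surface and enzyme families held large single changes, beside 18.4% of all genes called higher and 19.3% lower. Of 4 measured aquaporin genes 3 rose, Eglp4, Drip (13.6 and 21.4 in Luc KD and 60.8 and 151 in H2A.Z KD, 2.42) and Prip (131 and 188 against 261 and 485, 1.18), and bib fell (217 and 751 against 141 and 424, -0.72). Of 74 P450 genes 20 rose and 5 fell (median 0.39), the rises numbering 12 without Luc KD table B. Cyp6a14 was at 115 and 153 against 335 and 442 (1.53) and Cyp9f2 at 393 and 495 against 863 and 855 (0.96), and both passed without pairing. The receptor gene mthl2, of the Methuselah family, was at 535 and 558 against 2154 and 2702 (2.14, SE 0.09, adjusted p = 3.07e-10; 0.00297 without pairing), with 3 of 12 of its family higher and 3 lower. Of 30 tetraspanin genes 4 rose and 3 fell, with TM4SF larger in change than Tsp42Ee (0.45) and Tsp26A (-0.79); the rises numbered 2 without Luc KD table B and 2 without H2A.Z KD table B, and the falls 5 without H2A.Z KD table A. In insulin and TOR signalling 7 of 19 rose and 3 fell, among the falls gig, the Tsc2 gene (2449.6 and 2813 against 1836 and 1542, -0.64), and Tor itself (-0.45); with median scaling 12 rose.

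Of the genes tied to the transfected factors, da was lower in H2A.Z KD in the paired fit, while ac and sca differed between the tables in both groups. Reads of da and ac may include those of the transfected copies. Da RNA was at 104492 and 92873 in Luc KD and 72676 and 65240.1 in H2A.Z KD (-0.52; adjusted p = 0.134 without pairing), and ac RNA at 17276 and 24780.2 against 14079 and 25982, which did not pass (adjusted p = 0.435). The sensory precursor gene sca was at 378 and 3337 against 133 and 1151 (-1.52; adjusted p = 0.00427 with pairing and 0.476 without), and its level differed more between the tables than between the groups. In the Notch pathway 5 of 30 rose and 4 fell, among them the ligand gene Dl, from 31.5 and 71.4 to 11.3 and 15.9 (-1.76), and Notch itself (N, -0.22). Both shares lay below those of all genes (16.7% higher against 18.4%, and 13.3% lower against 19.3%). None of the list passed without pairing (0.0861 for Dl and 0.267 for N). The rises numbered 3 and the falls 1 without Luc KD table B, the falls 1 without H2A.Z KD table B, and with median scaling 10 rose and 1 fell.

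Of 15 measured neuron markers 0 rose and 2 fell, of 14 muscle markers 1 and 0, of 9 fat body markers 1 and 1, of 13 testis markers 1 and 2, and of 3 gut markers 0 and 0. Of 12 epithelium markers 6 were higher and 1 lower, against 37.7% of all genes called in either direction, among them vari (371 and 339 in Luc KD and 577 and 603 in H2A.Z KD, 0.73), a septate junction gene, and crb, an apical polarity gene, which fell (-0.64). Their summed level was 25042 and 22362 in Luc KD and 30539.5 and 29629 in H2A.Z KD. For glia markers 3 of 8 rose and 0 fell.

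The remaining groups held mixed or small changes, against 18.4% of all genes tested called higher and 19.3% lower. Of 26 genes of the vacuolar proton pump 15 rose and 2 fell, of 48 translation factor genes 20 and 4, and of 73 respiratory chain genes 8 and 20. Of 13 glycolysis genes 6 rose and 2 fell, of 13 lipid synthesis genes 7 and 2, and of 28 Rab GTPase genes 9 and 4. Signalling and chromosome structure gave fewer calls: of 25 EGF receptor pathway genes 4 rose and 0 fell, of 20 ecdysone response genes 2 and 5, of 16 insulator genes 2 and 3, of 16 heterochromatin genes 3 and 2, and of 4 C-type lectin genes 2 and 1. Without Luc KD table B the rises numbered 9 for the proton pump, 4 for Rab genes and 1 for the EGF receptor pathway, and the respiratory chain had 5 rises and 12 falls. Without H2A.Z KD table B the respiratory chain had 12 falls. Under quantile normalization the rises numbered 2 for glycolysis, 3 for lipid synthesis, 4 for Rab genes and 8 for the proton pump. There the translation factors turned from a median of 0.11 to -0.05, with 8 higher and 15 lower. With median scaling the respiratory chain median of -0.07 became 0.07.

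The response also differed by chromosome. Genes on the X chromosome (1991 tested) had a median of 0.10, with 25.2% higher and 11.6% lower, whereas the medians of the autosome arms 2L, 2R, 3L and 3R lay between -0.06 and 0.00. The small chromosome 4 had a median of 0.13 over 102 genes. The X exceeded the autosome arms in table A (0.07 against -0.03) and in table B (0.13 against -0.04). The gap between the medians was 0.14, and it lay between 0.10 (without H2A.Z KD table B) and 0.16 (without H2A.Z KD table A) under all scalings, filters, tools and left-out libraries tried. In Arp6 KD the same genes gave -0.01 and -0.02 on the X and -0.02 and -0.01 on the autosome arms. Genes of a chromosome are not independent replicates, and no test was made of this difference.

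**Figure D4:**
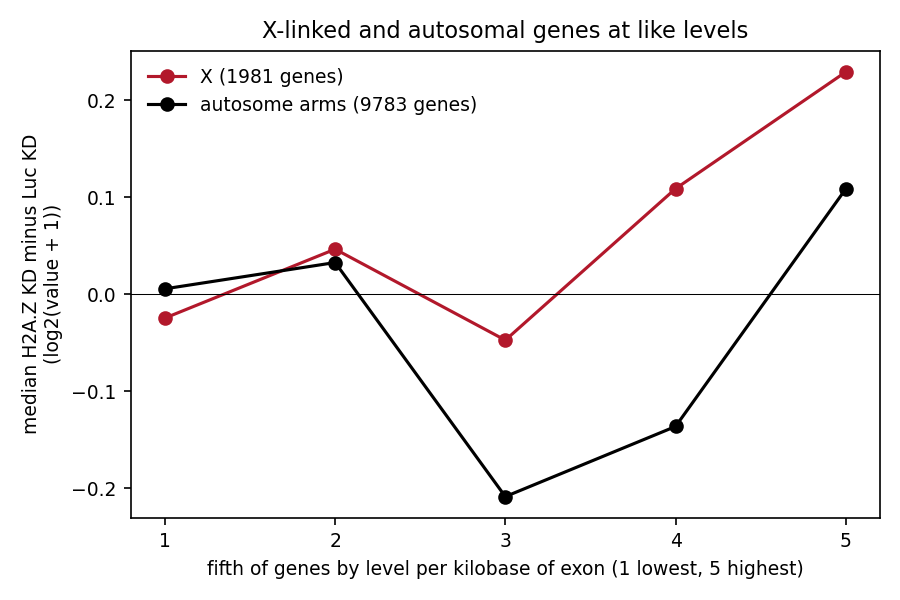
Median difference between H2A.Z KD and Luc KD (log2(value + 1)) of genes on the X and on the autosome arms, in quintiles of all genes by level per kilobase of exon. In the 3 higher quintiles the X median lies above that of the autosome arms, by the most in quintile 4 (0.11 against -0.14).

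The X difference stood in genes of middle and high level. In quintile 4 of genes by level per kilobase of exon, 31.8% of X genes were higher and 11.4% lower, against 15.4% and 38.2% of autosomal genes. In the lowest quintile few genes of either kind were called. Male Drosophila cells, S2 among them, raise X transcription through the MSL complex, which holds the noncoding RNAs roX1 and roX2. The gene lncRNA:roX2 was at 283 and 296 in Luc KD and 517 and 674 in H2A.Z KD (1.03, SE 0.11, adjusted p = 3.17e-06; 0.0284 without pairing), and lncRNA:roX1 at 94387 and 73033 against 117525 and 98180.1 (0.37; 0.241 without pairing). Of the protein subunit genes msl-2 fell from 2512 and 2983 to 2180.3 and 2354 (-0.27), while mle (2237 and 2216 against 2099 and 1994) and mof (1476 and 1535 against 1455 and 1602) did not pass.

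Level and gene length also went with direction, and the gene groups above were not compared with genes of like level. In the highest quintile by level per kilobase 46.0% of genes were higher and 14.3% lower (median 0.13), and in the middle quintile 16.1% and 36.0% (median -0.18). Quantile normalization brought the medians of those quintiles to 0.01 and -0.06. Changes of at least 2-fold were most frequent in quintile 2, with 5.34% higher and 6.60% lower, against 0.336% and 0.168% in the highest. By gene span, the longest quintile (from 7181 bases) had 27.5% higher and 12.4% lower, and the second shortest (from 1102 to 1867 bases) 14.7% and 24.8%.

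Genes that H2A.Z KD changed were compared with the knockdown of Arp6, measured in 4 other libraries with Luc KD controls of their own. Arp6 RNA was at 79.8% and 22.0% of control there, so replicate 1 retained most of its transcript, and His2Av at 115% and 108%. Of the 293 genes higher in H2A.Z KD with and without pairing, 78.2% were higher in both Arp6 KD replicates and 4.10% lower in both, with medians of 0.18 and 0.16. Of the 262 lower genes 76.3% were lower in both and 3.82% higher in both, with medians of -0.17 and -0.17. Over all genes called with pairing the shares were lower, with 62.4% of the rises higher in both and 241 of 2191 lower in both, and 54.7% of the falls lower in both and 10.9% higher in both. Of genes at least 2-fold higher in H2A.Z KD 39.9% were higher and 20.7% lower in both, and of those at least 2-fold lower 59.0% were lower and 10.5% higher. Over all genes tested here 27.1% were higher and 33.0% lower in both. The sign was shared most often in the genes called with and without pairing, whose medians in Arp6 KD were smaller than their H2A.Z medians of 0.64 and -0.80.

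Single genes went either way. NimC1 (0.65 and 0.75 in Arp6 KD replicates 1 and 2), TM4SF (0.73 and 0.83) and piwi (0.63 and 0.78) were higher in both, and CG3457 (-0.82 and -1.36), Hexo1 (-0.57 and -0.68) and CG30008 (-1.86 and -1.36) were lower in both. By contrast vas (-0.29 and -0.27), atilla (-0.20 and -0.77) and CG1208 (-0.69 and -0.55) were lower in Arp6 KD, but at few scaled reads. From Luc KD to Arp6 KD in replicates 1 and 2, vas went from 12.7 and 18.5 to 10.2 and 15.1. The gene atilla went from 9.52 and 8.75 to 8.16 and 4.73, and CG1208 from 13.8 and 8.75 to 8.16 and 5.67. TM4SF, higher in both, also had few, at 6.35 and 4.86 against 11.2 and 9.46. Differences this small may lie within counting error. Of the 15 largest rises 6 kept their direction in both Arp6 replicates and 3 reversed it in both, most of the 15 having few scaled reads there. Of the 15 largest falls 9 kept it and 1, His2Av, reversed it in both.

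**Figure D5:**
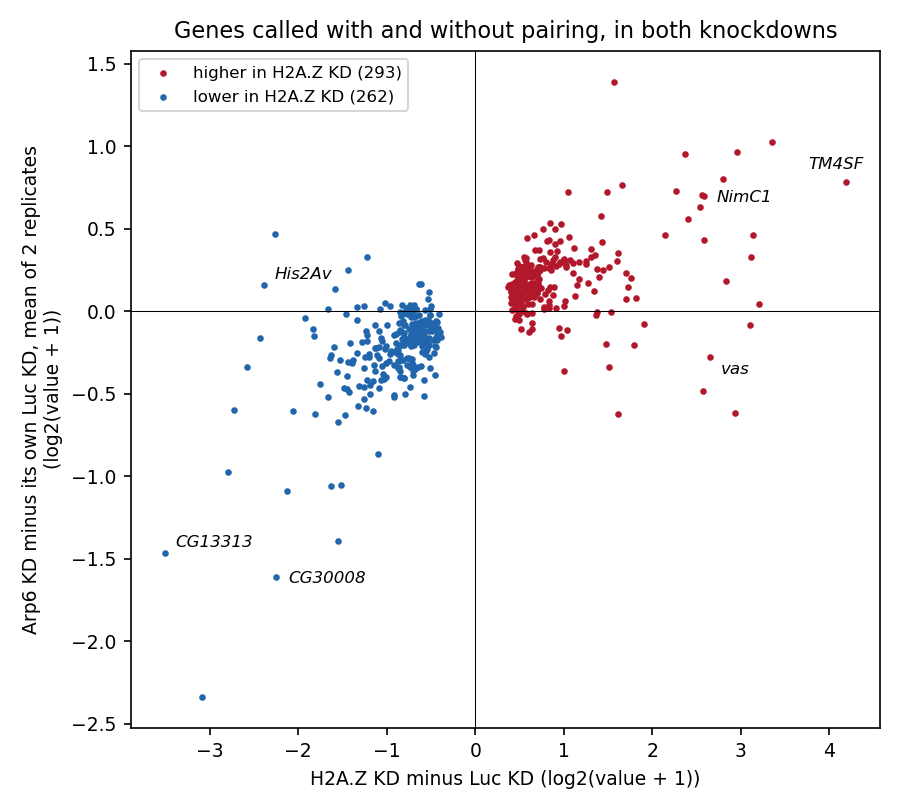
Difference between H2A.Z KD and Luc KD on the x axis against the mean difference between Arp6 KD and its own Luc KD on the y axis (both log2(value + 1)), for the genes called with and without pairing in H2A.Z KD. Most points lie in the upper right and lower left with smaller values on the y axis, while vas lies below and His2Av above 0 on the y axis, opposite to the x axis. The values of vas in the Arp6 set rest on few reads.

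The authors' deposited table of H2A.Z KD listed 1446 genes at an adjusted p under 0.05, of which 746 had a positive and 700 a negative fold change. All 1446 were called in the same direction by the paired fit, which made 32.2% of its calls, and 549 also passed without pairing. In the authors' deposited table the log2 fold change was 2.59 for NimC1, 4.37 for TM4SF and -2.29 for His2Av. The reads are largely the same, so this is no independent measurement, and 47 genes had a mean above 0 in that table but no read in the 6 libraries here.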

How the data were processed

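The authors deposited scaled counts per gene (unit signal), 1 column per library; every value was a whole multiple of the smallest nonzero value in its column within 0.001 reads, in 100% of values, so the deposited values are read counts divided by 1 factor per library, and the whole reads were recovered from them. Partek and BDGP6 are named in the submitters' processing notes; the sources used here give no aligner, counter or strand setting, and per the labels' protocols the libraries were made with an MGIEasy or a TruSeq mRNA kit, without saying which library had which. The authors' deposited comparison of H2A.Z KD with Luc KD holds log2 fold changes, a test score and p-values, and was used only where named.

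The 6 libraries of tables A and B were rescaled together by median-of-ratios factors. Genes with a mean of at least 1 entered limma (3.58.1, R 4.3.3) on log2(value + 1) with an intensity trend, 3 groups and the table as a block, and p-values were adjusted by Benjamini-Hochberg; the fit had 2 residual and 14.5 prior degrees of freedom. Since the unit is signal, the count tests edgeR (4.0.16) and DESeq2 (1.42.0) on the recovered reads were alternatives, beside other filters, pseudocounts and scalings and leaving out each library. The pairing rests on the shared tables, not on labels naming a shared culture: deviations from the group means correlated at 0.65, 0.62 and 0.58 between groups over 9103 genes. Levels per kilobase used the annotated exon length, known for 99.6% of the genes tested. Arp6 KD values came from another table scaled on its own and were set beside the differences here without a test.

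Genes named were the 15 largest rises and 15 largest falls past the threshold with and without the block, in the same direction in both tables, with a mean of at least 10 in the higher group; His2Av; and per gene list the members with the largest differences together with defining members that did not pass. Other genes (MED1 and the like) are named by role. The members, the gene lists and the tests were chosen with earlier results of these data known. Comparisons of Ac WT with Ac R29G were left out. Precision is set by 2 libraries per group, and floors cover counting error only.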

Additional observations from a re-analysis of the deposited data

Results flagged for a closer look

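Reads assigned to features other than genes, such as transposable elements, stood slightly higher in both H2A.Z KD libraries than in the controls. They made up 0.288% of the reads of H2A.Z KD table A and 0.299% of those of table B, against 0.276% and 0.269% in Luc KD with Ac WT and 0.270% and 0.277% in Luc KD with Ac R29G. These features entered no comparison. The gap was not tested.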

How the results depend on the processing

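With pairing, and without it on all 6 libraries, His2Av kept direction and call in the settings tried except without the intensity trend, where its difference of -2.39 did not pass (adjusted p = 0.0731 with pairing and 0.128 without). Of the other 29 named genes all kept direction there, and calls were lost by 2 in edgeR without a replicate block and without the intensity trend by all 29, or all but 1 with no pairing; edgeR, DESeq2 or the higher filter gave some no value. Without pairing and with a library left out, the 29 kept their direction but few calls: 14 without H2A.Z KD table A, 5 without either library with Ac R29G and 1 without any other. His2Av then passed only without an H2A.Z KD library and had an adjusted p of 0.103 and 0.141 without Luc KD table A and B, and of 0.0605 and 0.0590 without the libraries with Ac R29G. The paired fits with a library left out, or with 4 libraries, had 1 residual against 43.3 or more prior degrees of freedom, so their calls rest on the spread shared across genes and say little of single genes. The number of genes called moved from 4497 to 555 without the replicate block (293 higher, 262 lower), 682 in edgeR without the block (334 and 348), 1381 in DESeq2 without it (755 and 626) and 0 without the intensity trend (0 higher, 0 lower; 4171 at an unadjusted p under 0.05). With the block DESeq2 called 1488 lower. Median scaling gave 3336 higher and 1232 lower, 73.0% of calls higher against 48.9%. Leaving out 1 library of the 6 gave 2603 to 4860 calls, 1416 to 2229 higher and 1187 to 2631 lower; the lowest of each were without Luc KD table B. The cause was not tested. The paired and unpaired limma fits used the same 6 libraries, 1 of each group per table. Their differences are the same by construction, and only the calls stated beside each gene and list differ. Medians of 16 of 54 lists changed sign under another scaling. Differences of a few reads lie within counting error, which limits genes with means near 1.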

Other observations

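A list of small nuclear RNA genes, which encode the RNAs of the spliceosome and related particles, was added after the values were seen. Of 28 measured, 11 rose and 0 fell in limma paired by table (median 0.85), and 6 rose without Luc KD table B and 6 without H2A.Z KD table B. The shares over all genes tested were 18.4% higher and 19.3% lower. The gene snRNA:7SK was at 28.1 and 33.7 in Luc KD and 50.7 and 81.8 in H2A.Z KD (1.04, SE 0.27, adjusted p = 0.00539; 0.127 without pairing), the knockdown libraries being the higher in both tables. Without pairing none of the 28 passed. Several of these genes are near-identical copies, and a TruSeq mRNA kit is one of those named in the labels, so the reads of single copies are uncertain.

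Among genes with no read in H2A.Z KD that passed with pairing alone, chosen after their values were seen, CG6592 was at 4.26 and 11.2 in Luc KD (at least 4.23-fold lower), CG5111 at 3.41 and 7.14 and Npc2e at 4.26 and 4.08 (at least 2.38-fold lower). Table A held fewer of these reads than table B for CG6592 and CG5111.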
